A study of Mus musculus with 8 samples.

Results

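Acr, Acrbp, Acrv1, Zpbp, Zpbp2, Spaca1, Spink2, Crisp2, Atp8b3 and Spa17 encode proteins of the acrosome and sperm head. They were chosen by gene name for that role and not by a cut on their signal, but with earlier results of these data known. They are 10 of the 19057 genes named by a single symbol on the array, and 18 of its 45281 probes belong to them. The series compared whole testes of 4 Tex19.1-/- male mice with those of 4 Tex19.1+/- males, 1 animal for each array, at 16 days post partum (dpp), on Illumina Mouse WG-6 v2.0 Beadchips. Tex19.1 is a germ cell and pluripotent cell gene, and the study used these arrays to ask which retrotransposon RNAs change with its loss in developing male germ cells. The Tex19.1-/- animals carry 2 mutated alleles in every cell and the Tex19.1+/- animals, called controls here, carry 1. The strain label is C57BL/6 for all 8 animals, the methods give a backcross to C57BL/6 and littermate controls, and they count wild type animals among the controls while the labels give 4 heterozygotes. The labels give no treatment.

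The acrosome is a secretory cap over the sperm nucleus that is built in spermatids from vesicles of the Golgi apparatus and is opened at fertilization, releasing proteases and exposing membrane proteins that meet the egg coat. Several of its components are transcribed well before the organelle exists, in pachytene spermatocytes, which are the most advanced germ cells of a juvenile testis. In whole testis RNA, fewer cells of a type and less RNA per cell cannot be told apart.

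To show the regulatory sequence of members detected in every control, the promoter windows of 4 genes are given 5′ to 3′ on the strand of the gene, from 250 bases before to 50 bases after the transcript start in RefSeq (GRCm38.p6). The windows lie at chr10:80539075-80539374 (minus strand) for Atp8b3, chr6:125049677-125049976 (plus strand) for Acrbp, chr5:77211422-77211721 (minus strand) for the most upstream of 3 Spink2 starts and chr11:11462370-11462669 (minus strand) for Zpbp. Capitals mark matches, on either strand, to a MYB motif (CNGTTG), to the CRE core (TGACG) or to an RFX core (GTTGCC), 3 motifs of factor families known in spermatocytes and spermatids.
Atp8b3: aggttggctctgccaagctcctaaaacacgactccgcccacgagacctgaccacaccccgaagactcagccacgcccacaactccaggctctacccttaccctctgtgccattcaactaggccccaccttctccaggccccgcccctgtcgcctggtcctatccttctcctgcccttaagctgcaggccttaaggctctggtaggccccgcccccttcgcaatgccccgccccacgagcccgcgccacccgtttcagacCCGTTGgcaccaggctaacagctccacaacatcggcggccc
Acrbp: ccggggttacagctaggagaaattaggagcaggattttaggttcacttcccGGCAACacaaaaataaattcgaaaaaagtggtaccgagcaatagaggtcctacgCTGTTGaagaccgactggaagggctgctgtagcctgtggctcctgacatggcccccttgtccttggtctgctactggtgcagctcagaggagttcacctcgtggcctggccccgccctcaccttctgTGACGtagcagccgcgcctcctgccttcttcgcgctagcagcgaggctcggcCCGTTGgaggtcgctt
Spink2: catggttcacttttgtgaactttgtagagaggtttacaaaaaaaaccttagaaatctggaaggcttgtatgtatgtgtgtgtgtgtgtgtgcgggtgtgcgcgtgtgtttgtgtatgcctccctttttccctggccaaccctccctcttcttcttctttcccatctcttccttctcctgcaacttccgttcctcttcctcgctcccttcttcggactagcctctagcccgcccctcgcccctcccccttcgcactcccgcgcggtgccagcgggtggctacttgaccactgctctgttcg
Zpbp: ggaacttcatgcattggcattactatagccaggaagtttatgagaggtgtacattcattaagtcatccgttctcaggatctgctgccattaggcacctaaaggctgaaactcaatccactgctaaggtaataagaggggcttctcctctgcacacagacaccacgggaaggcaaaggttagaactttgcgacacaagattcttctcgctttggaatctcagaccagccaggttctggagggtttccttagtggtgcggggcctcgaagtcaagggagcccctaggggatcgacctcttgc
Of the 10 members, 9 have a window in this table. Acr, also detected in every control, has none. The Atp8b3 window holds a single match, to the MYB motif, at position 9 counted from the start. The Acrbp window holds MYB matches at positions -145 and 34, a CRE core at -18 and an RFX core at -199. The Spink2 and Zpbp windows hold none of the 3 motifs, and neither does that of Spa17. Among all 32851 windows of the same length, 35% hold the MYB motif, 20.8% the CRE core and 12.5% the RFX core, so matches are common and are given as a description only.

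A probe was taken as expressed when its detection p was under 0.01 in at least 1 array, which 19089 probes were. As the check of the labels, Tex19.1 (ILMN_2615917) gave a detected signal in 4 of 4 controls but in 0 of 4 Tex19.1-/- testes, a decrease of at least 4.33-fold (log2 change -2.59, SE 0.13, limma adjusted p = 6.3e-07). Control arrays had between 14152 and 15876 probes detected and Tex19.1-/- arrays between 13720 and 14668, and the lowest correlation between arrays of a genotype was 0.971 in controls and 0.976 in Tex19.1-/- animals. Of the expressed probes, 311 had an adjusted p no higher than 0.01, the threshold for a call, and were lower in Tex19.1-/- testes (1.63%), and 27 were called higher (0.141%). The called-lower probes that also changed at least 2 fold numbered 158 (0.828%). Sox9, a Sertoli cell gene, was detected in all controls and was not called (ILMN_2778151, log2 change 0.049, SE 0.15, adjusted p = 0.93), the single Sycp3 probe, for a protein of the meiotic chromosome axis, was detected in 0 of 4 controls, and the spermatid genes Prm1 and Tnp1 were also detected in 0 of 4 controls.

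Of the 10 genes, 7 had an expressed probe (10 probes in all), and Acrv1, Crisp2 and Spa17 had none. In the Tex19.1-/- testes 2 genes were called lower, Atp8b3 through 2 probes and Acr through 1, so that 3 of the 10 expressed probes were called against 1.63% of all expressed probes. This count fell to 0 with median scaling, with signals under 0 set to 0 and with an intensity trend and robust prior, and it was 5 probes of 4 genes with the replicate number as a block. No expressed member probe was called higher: the count was 0 in limma, 0 at an unadjusted p under 0.05 and 0 under each alternative setting tried. The log2 change was below 0 at 9 of the 10 expressed probes, against 43.9% of all expressed probes, and their median was -0.81, beside 0.024 over all expressed probes. At an unadjusted p under 0.05, 9 member probes were lower, against 7.93% of expressed probes, and at 7 every Tex19.1-/- animal lay below every control, against 6.06%. Of the 10 probes, 4 passed the expression criterion through controls alone, which favours a lower signal in Tex19.1-/- testes. As 3 of these 4 are among the 7 without overlap, these counts describe the genes and do not test them. The 6 probes detected in both genotypes include the 3 called ones, with 5 changes below 0 and 4 without overlap.

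**Figure D1:**
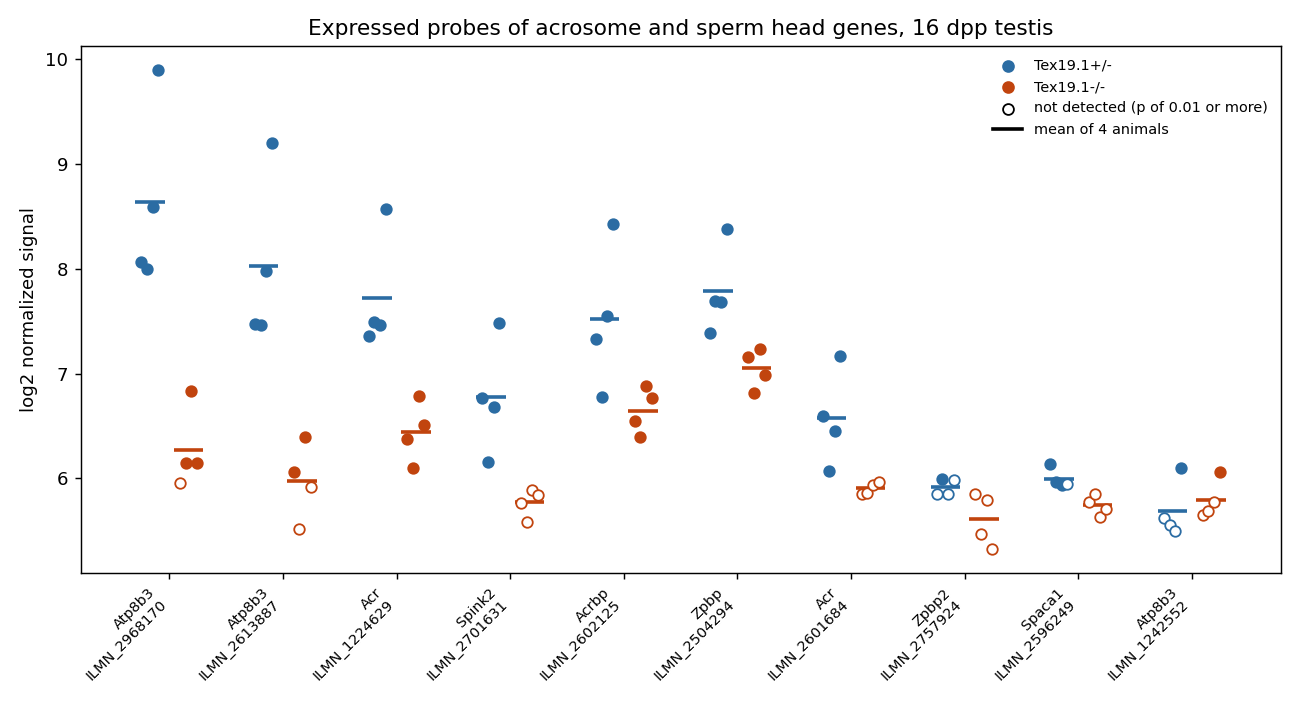
Log2 normalized signal (vertical axis) of each of the 10 expressed probes (horizontal axis) in each animal, blue for Tex19.1+/- and orange for Tex19.1-/-, with filled points for arrays in which the probe was detected, open points for arrays in which it was not, and lines for the mean of 4 animals. The controls of the 2 leftmost Atp8b3 probes lie at 7.46 or above and the Tex19.1-/- animals at 6.83 or below, and control replicate 4 is the highest point of 8 of the 10 probes.

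Atp8b3 encodes a P4-type ATPase, a phospholipid flippase of the acrosomal region in mouse sperm, and had the lowest log2 change of the 10 genes. Its probe ILMN_2968170 (gene on chromosome 10) had log2 signals of 8.06, 8.0, 8.58 and 9.90 in the controls, in the order of replicates 1 to 4, and of 5.95, 6.15, 6.83 and 6.15 in the Tex19.1-/- animals in the same order. All controls were above all Tex19.1-/- animals, with control replicate 4 high among the controls and replicate 3 high among the Tex19.1-/- animals. Before normalization the background-subtracted signals of the controls ran from 291.8 to 701.5. Those of the Tex19.1-/- testes ran from 15.29 to 49.08, and 3 of 4 of their arrays still detected the probe. Mean signal over the whole array was 90.8 to 159 in controls and 79 to 126 in Tex19.1-/- testes. Signals before normalization therefore also hold differences in brightness between arrays. The controls averaged 8.64 ± 0.88 (SD, n = 4) and the Tex19.1-/- testes 6.27 ± 0.39 (SD, n = 4), a log2 change of -2.37 (SE 0.34, 95% interval -3.09 to -1.64) or 5.16-fold lower (limma adjusted p = 0.0013). The size of the change depends on how dim signals are treated, and it was -3.05 with neqc background correction and -3.61 with signals under 0 set to 0.

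A further Atp8b3 probe, ILMN_2613887, gave the same picture at a lower signal. Controls were at 7.47, 7.46, 7.98 and 9.20 and Tex19.1-/- animals at 6.06, 5.52, 6.39 and 5.92, without overlap, and 2 of 4 Tex19.1-/- arrays detected it. Its log2 change was -2.06 (SE 0.32, 95% interval -2.74 to -1.37), 4.16-fold lower on this scale (limma adjusted p = 0.0021). As 2 Tex19.1-/- arrays did not measure the probe, this fold is not exact, and the change was -2.80 with neqc and -4.35 with signals under 0 set to 0. Over the 8 arrays the 2 probes correlated at 0.988, and at 0.942 after the mean of each genotype was removed, over points that share the same arrays. The gene has 2 other probes that did not follow them. ILMN_1242552 was detected in 1 control and 1 Tex19.1-/- array and changed by 0.10 (SE 0.14, adjusted p = 0.81), with overlapping groups, and ILMN_1228150 was detected in none of the 8 arrays. Both calls were lost under 3 settings. The adjusted p of ILMN_2968170 and ILMN_2613887 was 0.15 and 0.17 when arrays were scaled to 1 median in place of quantile normalization, at which 1 of all 19089 probes was called lower, 0.039 and 0.14 with signals under 0 set to 0, and 0.052 and 0.061 with an intensity trend and robust prior. ILMN_2613887 also lost its call without Tex19.1-/- replicate 1 (adjusted p just above the threshold, 0.01 when rounded) or replicate 4 (0.012), whereas ILMN_2968170 kept its call whichever animal was left out.

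Acr, Acrbp and Spink2 belong to the protease system of the acrosome. Acr encodes acrosin, the serine protease stored there as proacrosin. Its probe ILMN_1224629 (gene on chromosome 15) was detected in all 8 arrays, at 7.36, 7.49, 7.46 and 8.57 in controls and at 6.38, 6.10, 6.79 and 6.51 in Tex19.1-/- animals. The groups did not overlap, and control replicate 4 stood above the other controls.

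At that Acr probe the controls averaged 7.72 ± 0.57 (SD, n = 4) and the Tex19.1-/- testes 6.44 ± 0.29 (SD, n = 4), a log2 change of -1.28 (SE 0.23, 95% interval -1.78 to -0.77) or 2.42-fold lower on this scale (limma adjusted p = 0.0067). Its size depends on how dim signals are treated, and the log2 change was -1.71 with neqc background correction. Without control replicate 4 the change was -1.0 and the call held (adjusted p = 0.0015), and the call was lost without control replicate 3 (0.015) or without Tex19.1-/- replicate 1 (0.03), 2 (0.023) or 4 (0.026). It was also lost with median scaling (adjusted p = 0.33), cyclic loess (0.012), an intensity trend and robust prior (0.043), and signals under 0 set to 0 (0.077, with a log2 change of -2.05). The other Acr probe, ILMN_2601684, had 6.59, 6.07, 6.45 and 7.17 in controls, all detected, and between 5.86 and 5.97 in Tex19.1-/- animals, none detected. By the detection floor its mean was at least 1.46-fold lower, a bound that leaves out the spread between animals. It did not pass the threshold (log2 change -0.67, SE 0.18, adjusted p = 0.066), except without control replicate 2 (0.007). The 2 Acr probes correlated at 0.914 over the 8 arrays, and at 0.777 with genotype means removed.

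Acrbp encodes the protein that binds proacrosin and governs its packaging and maturation. Its probe ILMN_2602125 (gene on chromosome 6) was detected in all 8 arrays, at 7.33, 6.77, 7.55 and 8.43 in controls and 6.54, 6.40, 6.88 and 6.77 in Tex19.1-/- animals. The groups overlapped, since control replicate 2 lay below Tex19.1-/- replicate 3. The log2 change of -0.87 (SE 0.26, 95% interval -1.43 to -0.31, and -1.13 with neqc), 1.83-fold on this scale, did not pass the threshold (limma adjusted p = 0.11). With the replicate number as a block it did (adjusted p = 0.0062). The gene's other probe, ILMN_1217276, was detected in no array.

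Spink2 encodes a Kazal-type serine protease inhibitor of the acrosome. The probe (ILMN_2701631, gene on chromosome 5) was detected in all 4 controls, at 6.77, 6.16, 6.68 and 7.48, and in none of the Tex19.1-/- arrays, at 5.76, 5.58, 5.89 and 5.84. Every control was above every Tex19.1-/- animal, with control replicate 2 nearest to them. Before normalization, with differences in brightness between arrays still present, control signals ran from 30.99 to 94.6. Those of the Tex19.1-/- testes ran from 1.524 to 9.679. By the detection floor, the mean Spink2 signal was lower by at least 1.68-fold in these testes, a bound that leaves out the spread between animals. The log2 change of -1.0 (SE 0.21, 95% interval -1.45 to -0.55) missed the threshold (limma adjusted p = 0.016). It passed with the replicate number as a block (adjusted p = 0.00094), with array weights (0.0024), and without control replicate 2 (0.0016) or control replicate 4 (0.01 when rounded, just under the threshold).

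**Figure D2:**
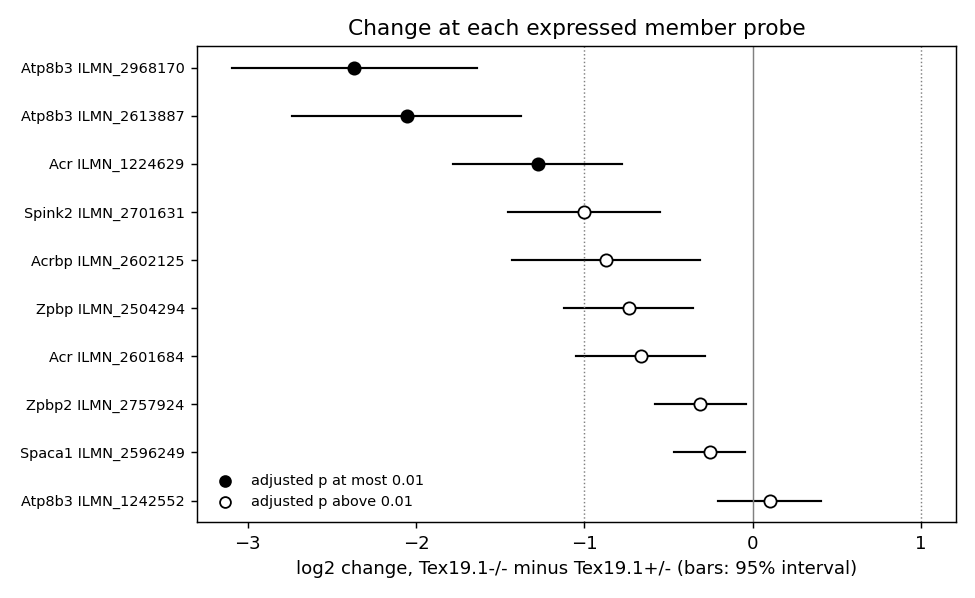
Log2 change of each expressed probe, Tex19.1-/- minus Tex19.1+/- (horizontal axis, points with 95% intervals from limma, 4 animals per genotype), with filled points for calls (adjusted p no higher than 0.01) and dotted lines at 2 fold. The 2 topmost Atp8b3 probes (-2.37 and -2.06) and 1 Acr probe (-1.28) are filled, the intervals of 6 further probes lie below 0 with open points, and the Atp8b3 probe ILMN_1242552 is at 0.10.

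Zpbp and Zpbp2 encode paralogous zona pellucida binding proteins of the acrosome, needed for its compaction and for the shape of the sperm head in mice. Both genes lie on chromosome 11, as Tex19.1 does. Zpbp (ILMN_2504294) was detected in all 8 arrays, at 7.39, 7.69, 7.68 and 8.38 in controls and 7.16, 6.82, 7.23 and 6.98 in Tex19.1-/- animals. No Tex19.1-/- animal reached the lowest control, by a margin of 0.15. The log2 change of -0.74 (SE 0.18, 95% interval -1.12 to -0.35, and -0.91 with neqc), 1.67-fold on this scale, missed the threshold (limma adjusted p = 0.039, and 0.013 with the replicate block). Zpbp2 (ILMN_2757924) was near the limit of detection, detected in control replicate 2 alone, with 5.85 to 6.00 in controls and 5.33 to 5.85 in Tex19.1-/- animals. The groups met at 5.85, and the log2 change of -0.31 (SE 0.13) did not pass (adjusted p = 0.27). A second probe of each gene was detected in no array.

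Spaca1 encodes a membrane protein of the acrosome that in mice is needed for it to form. Its probe ILMN_2596249 (gene on chromosome 4) was detected in 3 of 4 controls and in no Tex19.1-/- array. Signals were 6.14, 5.97, 5.94 and 5.95 in controls and 5.78, 5.85, 5.63 and 5.71 in Tex19.1-/- animals. The groups did not overlap, but they lay close to the lowest detected signal of the arrays (5.93 to 6.06), and no fold is given because the bound that this limit allows is under 1. The log2 change of -0.25 (SE 0.098) did not pass the threshold (limma adjusted p = 0.24). The other Spaca1 probe was detected in no array.

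The remaining 3 genes gave no detected signal in these testes. Acrv1 encodes SP-10, a protein of the acrosomal matrix, Crisp2 a cysteine-rich secretory protein of the acrosome and sperm tail, and Spa17 a sperm surface protein that binds the zona pellucida and A-kinase anchoring proteins. Each has 1 probe, so an absent transcript and a probe that fails to detect it cannot be told apart. Acrbp, Zpbp, Zpbp2, Spaca1 and Atp8b3 each have a probe detected in no array beside a detected one. The lowest detection p in any of the 8 arrays was 0.81 for Acrv1, whose signals were all below 0 after background subtraction, 0.28 for Crisp2 and 0.083 for Spa17. Over the 8 member probes detected in no array, the log2 signals ran from 4.66 to 5.97, and no difference between the genotypes was detectable for them.

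The 10 genes therefore sorted by detection in control testes. Atp8b3, Acr, Acrbp, Zpbp and Spink2 had a probe detected in 4 of 4 controls, Spaca1 in 3, Zpbp2 in 1, and Acrv1, Crisp2 and Spa17 in 0. The spermatid marker list (Prm1, Tnp1 and others) had 2 expressed genes of 14 on the array, neither called.

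Within a genotype the probes varied together from animal to animal. Over the 7 member probes detected in every control, the mean log2 signal was 7.28, 7.09, 7.48 and 8.45 in the controls and 6.24, 6.06, 6.57 and 6.31 in the Tex19.1-/- animals, by replicate number. Control replicate 4 was the highest control at 7 of these 7 probes, where it was the highest at 27.2% of all expressed probes and at 83.3% of the 311 probes called lower. In background-subtracted signal it was the highest at 5 of the 7, although its mean signal over the array was the lowest of the controls (90.8 against 145 to 159). Tex19.1-/- replicate 3 was the highest of its genotype at 6 of the 7, against 24.7% of expressed probes and 65.6% of those called lower.

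A list of 15 pachytene spermatocyte markers (Piwil1, Ldhc, Pgk2, Hspa2 and others) was lower in the same animals. Of its 12 expressed genes, 8 were called lower, against 1.63% of expressed probes, and 0 higher, with a median log2 change of -1.17. The list includes 3 genes expressed through controls alone, 1 of them called, and the 9 detected in both genotypes hold the other 7 calls. The 8 calls became 0 with median scaling, 4 when an intensity trend and robust prior were used, 1 when signals under 0 were set to 0, and 5 without Tex19.1-/- replicate 4. Its mean log2 signal was 8.84, 8.84, 9.01 and 9.48 in the controls and 7.70, 7.27, 7.99 and 7.57 in the Tex19.1-/- animals, by replicate number, again with control replicate 4 and Tex19.1-/- replicate 3 the highest of their genotypes. Piwil1, a PIWI protein of pachytene spermatocytes, changed by -2.76 (ILMN_2769052, SE 0.25, limma adjusted p = 1.5e-04).

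Lists of other cells had at most 1 call each. The spermatogonia list had 0 calls among 7 expressed genes (7.62 to 7.69 in controls, 7.72 to 7.87 in Tex19.1-/- testes). Its median log2 change was 0.10, and 0 of the 7 changes were below 0. The early meiotic prophase list had 1 gene called lower of 9 (7.98 to 8.26 and 7.89 to 7.94), against 1.63% of expressed probes. Its median log2 change was -0.26, and 8 of the 9 changes were below 0, against 43.9% of all expressed probes. The Sertoli list had 0 calls among 9 (9.24 to 9.58 and 9.44 to 9.65), and the Leydig list 0 among 5, with medians of 0.17 and 0.23. The list of epididymis and other tract genes, which shares Crisp4 with the wider list given next, had 2 expressed genes of 7 and 0 calls. The part that the share of pachytene cells has in the lower acrosome signals was not tested.

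**Figure D3:**
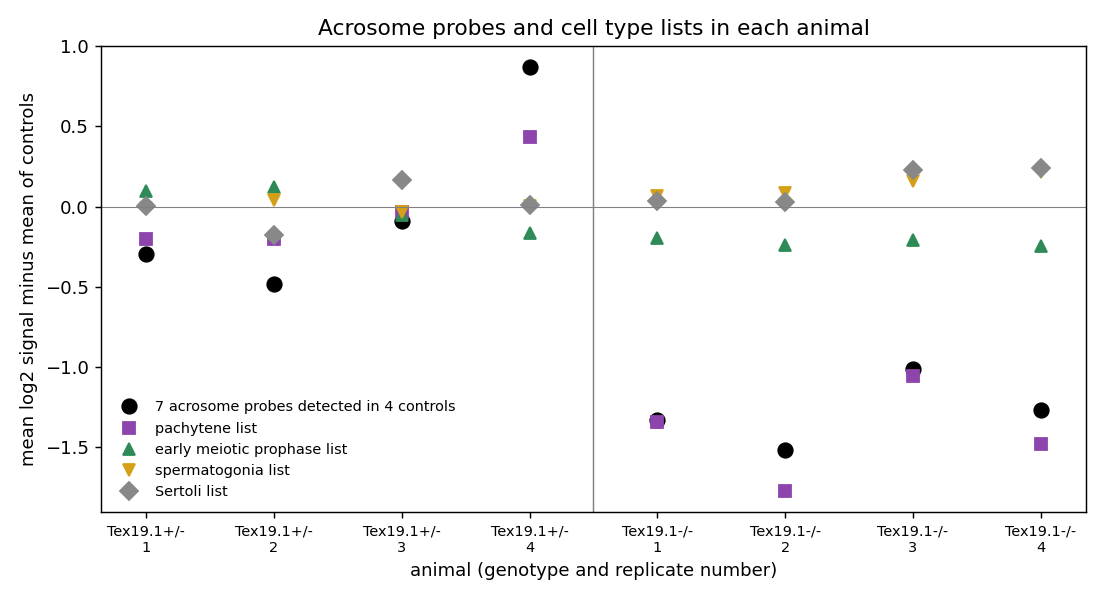
Mean log2 signal in each animal minus the mean of the 4 controls (vertical axis), for the 7 acrosome probes detected in all controls (black circles) and for 4 cell type lists, with the animals of both genotypes along the horizontal axis. The acrosome probes and the pachytene list (purple squares) are highest in control replicate 4 among controls and in replicate 3 among Tex19.1-/- animals, and neither the spermatogonia nor the Sertoli list separates the genotypes by as much. In the early meiotic prophase list (green triangles) every Tex19.1-/- animal lies below every control, by less than in the pachytene list. In the spermatogonia list every Tex19.1-/- animal lies above every control.

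A wider list of 72 further genes, chosen by role with earlier results known, had 64 genes on the array and 23 expressed. It covers the acrosome, sperm head and sperm-egg fusion, and also A-kinase anchoring and related partners of Spa17. Tmprss12 and Spesp1 were called lower and no gene was called higher (0 also at an unadjusted p under 0.05 and under each alternative setting), against 1.63% of expressed probes called lower and 0.141% higher. The log2 change was below 0 for 17 of the 23, against 43.9% of all expressed probes, and their median was -0.20. Of the 23, 8 passed the expression criterion through controls alone, and all 8 are among the 17, so this count is a description. The partners of Spa17 that were expressed are all among these 8. The 12 genes detected in both genotypes include both called genes and 9 changes below 0. The mean signal of the list was 6.88 to 7.16 in controls and 6.67 to 6.74 in Tex19.1-/- testes.

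Tmprss12, a transmembrane serine protease of germ cells, lay between 7.26 and 8.03 in controls and between 6.45 and 6.73 in Tex19.1-/- animals (ILMN_2797098, log2 change -0.95, SE 0.15, 95% interval -1.28 to -0.62, limma adjusted p = 0.0031). Spesp1, a protein of the equatorial segment of the sperm head, lay between 7.5 and 8.31 in controls and between 6.70 and 7.12 in Tex19.1-/- animals (ILMN_2676961, log2 change -0.97, SE 0.17, adjusted p = 0.0045). Neither gene's groups overlapped. Both calls were lost with median scaling (adjusted p = 0.38 and 0.60), with signals under 0 set to 0 (0.04 and 0.057) and without Tex19.1-/- replicate 1, 2 or 4, and that of Spesp1 also without control replicate 3.

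The next 4 genes by p did not pass the threshold. Pick1, a PDZ domain protein of vesicle traffic from the Golgi to the acrosome, had a log2 change of -0.50 (ILMN_2628488, SE 0.099, limma adjusted p = 0.011), while its other probe was at 0.079 (ILMN_1246720, adjusted p = 0.78). ILMN_2628488 passed with the replicate block (0.0098), cyclic loess (0.0073), array weights (0.0051), probes detected in every array of a genotype (0.0084), and without control replicate 4 (0.0098). Izumo4, of the Izumo family of sperm proteins, had -0.51 (SE 0.12, adjusted p = 0.037). Pcsk4, the proprotein convertase of the acrosome, had -0.44 (SE 0.11, adjusted p = 0.045). Spata16, which passes from the Golgi to the acrosome, was detected in 4 controls and 0 Tex19.1-/- arrays and had -0.42 (SE 0.10, adjusted p = 0.037).

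**Figure D4:**
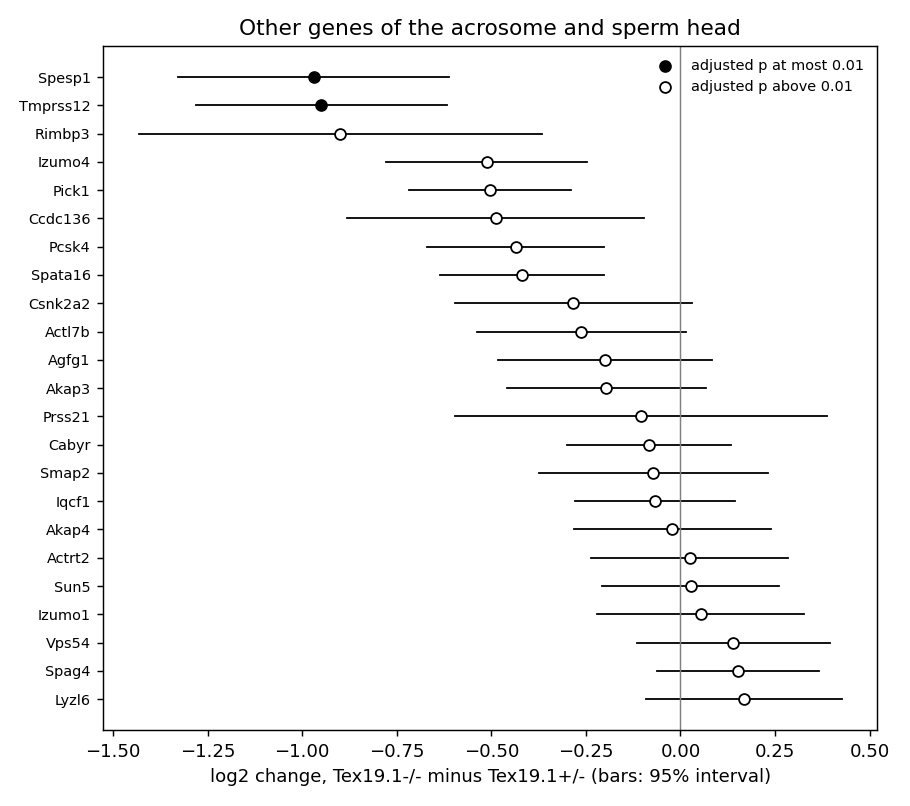
Log2 change, Tex19.1-/- minus Tex19.1+/- (horizontal axis, points with 95% intervals from limma, 4 animals per genotype), for the 23 expressed genes of the wider list (vertical axis), each by its brightest expressed probe. The list includes partners of Spa17 beside genes of the acrosome and sperm head. Spesp1 (-0.97) and Tmprss12 (-0.95), filled, are the called genes. Of the 23 points 17 lie below 0, among them all 8 genes expressed through controls alone.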

How the data were processed

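The authors prepared amplified cRNA from the RNA of whole testes of 4 Tex19.1+/- and 4 Tex19.1-/- mice and hybridized it to 1 array each. The deposited intensity of a probe is a linear signal with the background subtracted in BeadStudio (its version is not given in the sources used here), so values below 0 occur, and the deposited detection p-value accompanies it. The authors also deposited log2 values, quantile-normalized in lumi (median 5.73).

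The signals of an array were raised so that the lowest became 1, taken to log2, and quantile-normalized between arrays by limma 3.58.1 (R 4.3.3), to within 0.0144 of the deposited table. The shift compresses folds of dim probes. Expressed probes (at least 1 array with a detection p under 0.01) entered lmFit and eBayes with genotype as the sole term and 6 residual degrees of freedom, with p-values adjusted by Benjamini-Hochberg over all 19089, and called at an adjusted p of at most 0.01. A fold written as at least N-fold concerns a probe detected in none of the 4 arrays of a genotype, and divides the other genotype's mean by a floor, which is the lowest detected signal of each array or the probe's own if higher, averaged. It bounds the observed ratio of means and takes no account of the spread between animals. Precision is limited by the number of arrays. In 3 simulated runs on 19089 probes for this comparison, the share called was 32% at a true change of 1.5 fold, 85.3% at 2 fold and 99% at 4 fold. The changes were added after normalization, at probes drawn from all expressed ones, to noise independent between probes. These shares therefore leave out the compression of dim probes and deviations shared by the probes of an animal, and are not rates for the member probes.

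Symbols came from the platform annotation updated through a RefSeq table (GRCm38.p6), which gave 16257 expressed probes 1 symbol, 7 several and 2825 none. The wider list takes each gene by its expressed probe of highest mean signal. Named are all members with every probe, Tex19.1, the called genes of the wider list and those of smallest p up to 6, and Sycp3, Piwil1, Prm1, Tnp1 and Sox9. The members and lists were chosen with earlier results of these data known.

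Replicate numbers 1 to 4 occur in both genotypes, and no source used here says what they mark. With genotype means removed, the correlation within a number was 0.21, 0.52, 0.10 and 0.23. All exceed 0.1 before rounding, but so does that of control replicate 1 with Tex19.1-/- replicate 2 (0.13), so these values do not establish pairs. The number was used as a block only in an alternative setting, and the main fit has no block. Control replicate 4 correlated more with Tex19.1-/- replicate 3 (0.45), and control replicate 3 with Tex19.1-/- replicate 4 (0.23). A fit with the number as a block and 11 other settings were tried, besides leaving out each animal. The chip that carried each array was not given in the sources used here. Figures were drawn with matplotlib 3.10.9.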

Additional observations from a re-analysis of the deposited data

Results flagged for a closer look

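In 2 of 20 groups of 4 animals, 1 for each expressed probe and genotype, an end animal stood apart from the rest. Control replicate 4 at the Acr probe ILMN_1224629 (log2 8.57) had a gap to the next control of 0.893 of the range of the group, and control replicate 1 at the Spaca1 probe ILMN_2596249 (log2 6.14) had 0.857, both above the 95% critical value of Dixon's test for 4 values. Chance gives such a gap in about 1 group of 20. Without the respective animal, the Acr change was -1.0 (limma adjusted p = 0.0015) and the Spaca1 change -0.22 (adjusted p = 0.47).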

How the results depend on the processing

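For the 10 expressed member probes and the 6 wider-list probes refitted, the direction of the change held under every setting in which the probe was fitted. The calls did not hold. With the replicate number as a block, 470 of all expressed probes were called lower and 48 higher (311 and 27 without it), and 5 member probes of 4 genes (3 probes of 2 genes without it). The block made Acrbp, Spink2 and Pick1 (ILMN_2628488) pass and changed no other call among the 10 expressed member probes and the 6 wider-list probes refitted. With median scaling in place of quantile normalization, 1 probe of all was called lower and 0 higher, with 0 member probes, 0 member genes and 0 of the wider list, and the median change of all expressed probes moved from 0.024 to 0.14. With signals under 0 set to 0, the calls were 20 lower and 1 higher of all probes, 0 of the member probes and genes and 0 of the wider list, while the Atp8b3 changes were -3.61 and -4.35. An intensity trend with a robust prior called 0 member probes and 0 member genes, and cyclic loess called 1 member gene. Requiring 2 fold left 158 of the probes called lower. The causes were not tested.

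Leaving out 1 animal gave 151 to 313 probes called lower and 16 to 27 higher, 1 to 5 member probes, 1 to 3 member genes and 0 to 3 wider-list genes called lower. All probes called lower numbered 202 without control replicate 3 and 175, 184 and 151 without Tex19.1-/- replicates 1, 2 and 4, and 16 were called higher without Tex19.1-/- replicate 1. Member probes called lower numbered 5 without control replicate 2 and 1 without Tex19.1-/- replicate 1 or 4. Member genes numbered 1 without control replicate 3 or Tex19.1-/- replicate 1, 2 or 4, and wider-list genes 1 without control replicate 3 and 0 without Tex19.1-/- replicate 1, 2 or 4. Dim probes limit the rest, since 8 of 18 member probes were detected in no array.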
